A study of Mus musculus with 6 samples.

Results

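The 9 genes described here encode cadherins and the catenins that bind them: the classical cadherins Cdh1, Cdh2, Cdh3 and Cdh4, the related Cdh11, Cdh13 and Pcdh20, and the catenins Ctnna1 and Ctnnd1. They were read from the 23 probe sets that the array's annotation assigns to 1 of these genes alone, out of 34945 probe sets assigned to a single gene and 45037 probe sets without Affymetrix controls, or 9 of 18193 genes. Of the 9 genes, 7 were taken by family and name (19 probe sets), whereas Cdh11 and Pcdh20 (4 probe sets) were taken because their signals were much lower in NFFSE on these same arrays. The values of Cdh11 and Pcdh20 are therefore described without a test.

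Epithelial cells from the bulge of vibrissa follicles of mice of 7 to 8 weeks were embedded in 1% atelocollagen, a type I collagen without its telopeptides, and cultured for 6 days in NFFSE or NFFS medium. NFFSE medium held EGF at 50 ng/ml. Both media held Noggin, FGF-7, FGF-10 and the hedgehog agonist SAG, each at 50 ng/ml, so that the comparison of NFFSE with NFFS cultures asks what differs when EGF is present. Cells of each of 3 repeats were divided between the media, which gave 3 NFFSE and 3 NFFS arrays from whole cultures with no sort after the culture. The labels call the repeats biological replicates, and their number limits the precision of all values. The cells came from the whole bulge, its niche cells included, and fewer cells of a type cannot be told apart from less RNA per cell in such bulk samples.

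Classical cadherins are membrane proteins that bind the same cadherin on the neighbouring cell in the presence of calcium. Their cytoplasmic tails bind p120-catenin, encoded by Ctnnd1, and β-catenin, which in turn binds α-catenin, encoded by Ctnna1, the link to the actin filaments. In the follicle, E-cadherin (Cdh1) is found in nearly all epithelial cells, and P-cadherin (Cdh3) is known from basal and matrix cells.

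The values are MAS5 signals, each a linear intensity computed by the authors from the several probes that make up a probe set. Differences are given as NFFSE minus NFFS on the log2 scale, and the threshold for a call was an adjusted p under 0.05 in limma, a linear model across all genes or all probe sets. The model had no term for the repeat, so that the arrays were not paired unless stated. Replicates are given in the order 1, 2 and 3 throughout. Control probe sets for a transcript that mouse cells lack reached 22.7 on these arrays (18 values), and signals no higher than that were called background. Brightness depends on the probes, so that tests compared signals between media and not between genes. Where probe sets are called dim or bright or given a percentile, this describes their signal and does not rank genes by their RNA. Over all genes, limma called 2021 higher and 2805 lower in NFFSE. Centering the arrays on their medians gave 2920 higher and 1816 lower and a median over all genes of 0.19, against -0.012 as deposited. As a measure of RNA integrity, the Gapdh control probe sets differed by -0.37 ± 0.011 log2 units between their 3' and 5' ends in NFFSE and by -0.62 ± 0.017 in NFFS (SD, n = 3 each; p = 0.1, the smallest value of a two-sided exact permutation test on 3 arrays against 3). For the Actb control the difference was 0.27 ± 0.019 in NFFSE and 0.33 ± 0.059 in NFFS (SD, n = 3 each; p = 0.3 in the same exact test). The part of RNA integrity in the results below was not tested.

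Among the members, the widest gaps between media were those of the genes chosen for them, Cdh11 and Pcdh20, whose signals were 50.3-fold and 37.0-fold lower in NFFSE. Cdh1, the main cadherin of epithelia, gave nearly the same signal in both media, and the α-catenin gene Ctnna1 was the only one of the 7 genes chosen by name that passed the test (1.30-fold higher in NFFSE). In limma, 1 of these 7 genes was called higher and 0 were called lower, against 26.5% of all genes called in either direction. The arrays of the media did not overlap for 1 of the 7, against 40.8% of all genes, and at an unadjusted p under 0.05 the counts were 2 higher and 0 lower, against 6517 of all 18193 genes in either direction. The test that the methods name gave the same 1 and 0. Of the 19 probe sets of these genes, 3 were called higher, 1 was called lower and 15 were not called. Over all probe sets 20.4% were called, 7.69% higher and 12.7% lower. The media did not overlap for 6 of the 19, against 36.2% of all probe sets.

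**Figure D1:**
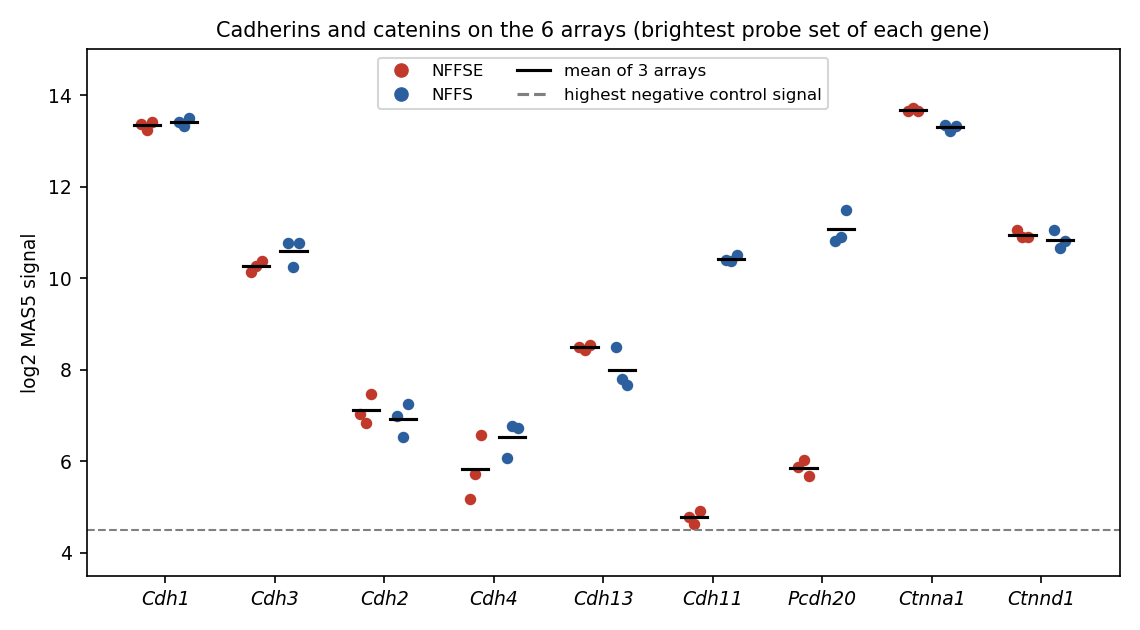
Log2 MAS5 signal (vertical axis) of the 9 genes on the 6 arrays, each gene read from its brightest probe set, with NFFSE arrays in red left of NFFS arrays in blue. Points are arrays, black lines are means of 3 arrays and the dashed line is the highest negative control signal (22.7 on the linear scale). Cdh11 and Pcdh20, chosen for this gap, are the only genes drawn with the NFFSE arrays far below the NFFS arrays.

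Promoters from RefSeq were at hand for 2 of the 9 genes, Pcdh20 and Ctnnd1. The 250 bases before the start are shown for Pcdh20, whose signals were far apart between the media, and for the upstream one of the starts of Ctnnd1, whose signals overlapped. Both are given 5′ to 3′ along the gene, from build GRCm38.p6, with the CG dinucleotides in capitals.
Pcdh20, chr14:88471397-88471646, minus strand: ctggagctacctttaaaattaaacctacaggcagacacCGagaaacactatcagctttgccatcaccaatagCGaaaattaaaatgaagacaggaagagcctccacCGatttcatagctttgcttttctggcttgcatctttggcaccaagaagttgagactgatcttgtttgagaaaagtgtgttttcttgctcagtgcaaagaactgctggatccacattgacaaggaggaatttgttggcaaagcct
Ctnnd1, chr2:84658978-84659227, minus strand: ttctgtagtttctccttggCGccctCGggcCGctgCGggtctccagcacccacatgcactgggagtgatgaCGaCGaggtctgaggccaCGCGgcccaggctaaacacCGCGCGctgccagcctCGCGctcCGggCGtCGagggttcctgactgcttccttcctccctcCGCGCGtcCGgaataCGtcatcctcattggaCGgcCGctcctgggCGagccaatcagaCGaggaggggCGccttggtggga
The Pcdh20 stretch held 3 CG dinucleotides and 42.4% G and C, and the Ctnnd1 stretch held 26 CG dinucleotides and 66.8% G and C. Among 32851 mouse promoters of the same length, the medians were 6 CG dinucleotides and 52.4% G and C, so that these promoters lay on opposite sides of both medians. The other start of Ctnnd1, at chr2:84650741-84650990 on the minus strand, held 3 CG dinucleotides and 40% G and C. The letters CACCTG, searched on both strands as the E-box that repressors of Cdh1 bind, were in 17.2% of all promoters and in none of these 3. The wider pattern CANNTG, which includes CACCTG, was in 66.2% of all promoters, in the upstream Ctnnd1 stretch 1 time and in neither of the others. The letters in these windows say nothing of which factors were bound in the cultures, and the probe sets were not placed on the genes here.

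Neither of the epithelial cadherins Cdh1 and Cdh3 passed the test in the gene fit. The Cdh1 signal was 10632, 9708 and 10909 on the NFFSE arrays, against 10946, 10180 and 11610 on the NFFS arrays, all at or above the 98.2nd percentile of the probe sets of their array. The arrays of the media overlapped, with replicate 2 the lowest in both media. The mean was 10416 ± 629 in NFFSE and 10912 ± 716 in NFFS (SD, n = 3 each), a log2 difference of -0.07 with a 95% interval of -0.30 to 0.16 (limma, adjusted p = 0.706). This interval corresponds to ratios of NFFSE to NFFS from 0.814 to 1.12. After centering of the arrays on their medians the difference was 0.13 (adjusted p = 0.457), so that its sign depended on the scaling.

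Cdh3 encodes P-cadherin and lies next to Cdh1 on chromosome 8. Its brighter probe set, 1426673_at, gave 1117, 1225 and 1333 in NFFSE, against 1732, 1213 and 1741 in NFFS. NFFS replicate 2 lay among the NFFSE arrays, and the other NFFS arrays lay above all of them. The log2 difference was -0.33 with a 95% interval of -0.68 to 0.01 (adjusted p = 0.148, limma). Without NFFS replicate 2 it was -0.51 and passed the test (adjusted p = 0.0106, limma). The dim probe set 1441255_at gave 51.2, 45.2 and 93.1 in NFFSE, against 96.5, 101 and 120 in NFFS. Its media did not overlap, as in 21.4% of all probe sets in this direction, but NFFSE replicate 3 came close to the NFFS arrays. Its log2 difference of -0.81 did not pass the test (adjusted p = 0.128, limma) and did so without NFFSE replicate 3 (-1.13, adjusted p = 0.0379, limma).

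The other classical cadherins were dim. Cdh2, which encodes N-cadherin, known from neural and mesenchymal tissues, gave 131, 115 and 177 in NFFSE, against 127, 91.8 and 153 in NFFS, on its brighter probe set 1418815_at. The arrays of the media were interleaved, with a log2 difference of 0.19 and a 95% interval of -0.44 to 0.83 (adjusted p = 0.689, limma). Without NFFS replicate 2 the difference was -0.0074. The second probe set of Cdh2, 1449244_at, gave 56.3, 59.5 and 99.1 in NFFSE, against 49.4, 34.2 and 41.3 in NFFS. All NFFSE arrays were above all NFFS arrays, as in 14.8% of all probe sets, yet the difference of 0.75 did not pass the test (adjusted p = 0.210, limma).

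Cdh4, which encodes R-cadherin, known from retina and brain, gave lower values in NFFSE on both of its probe sets that were above background. Its probe set 1456397_at gave 26.0, 40.7 and 44.3 in NFFSE, against 83.6, 91.6 and 103 in NFFS. The media were clearly apart, although NFFSE replicate 1 was close to background. The mean was 37.0 ± 9.67 in NFFSE and 92.8 ± 9.92 in NFFS (SD, n = 3 each), 2.57-fold lower in NFFSE, and this was the only probe set of the genes chosen by name that was called lower (log2 difference -1.36, adjusted p = 0.0198, limma). The call was lost without NFFSE replicate 1 (-1.12, adjusted p = 0.0532) and without NFFS replicates 1 (-1.43, adjusted p = 0.0506), 2 (-1.37, adjusted p = 0.0522) or 3 (-1.28, adjusted p = 0.0828) in limma, and by the methods' test (adjusted p = 0.0519). The brighter probe set 1449422_at gave 36.2, 53.1 and 94.5 in NFFSE, against 67.3, 110 and 105 in NFFS. Here NFFSE replicate 3 lay among the NFFS arrays, and the difference of -0.70 did not pass the test (adjusted p = 0.266, limma). The third probe set, 1449637_at, was at background on all 6 arrays.

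Cdh11 encodes a type II cadherin known from mesenchymal cells and bone. Its brighter probe set 1450757_at gave 27.5, 24.7 and 30.0 in NFFSE, against 1348, 1318 and 1454 in NFFS. All NFFSE arrays were just above background, and the NFFS arrays differed little from each other. The mean was 27.4 ± 2.69 in NFFSE and 1373 ± 71.8 in NFFS (SD, n = 3 each), a log2 difference of -5.65. The second probe set, 1435120_at, gave 15.2, 6.5 and 25.5 in NFFSE, against 208, 213 and 206 in NFFS. Replicates 1 and 2 of NFFSE were at background here, so that the signal was at least 8.85-fold lower in NFFSE, computed against 22.7 or the array's own signal, whichever was higher. Over 18193 genes ordered from the most negative difference, Cdh11 had rank 11.

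Because Cdh11 is known from mesenchymal cells, the markers of other cell types were read on the same arrays. Of 8 keratinocyte markers, 5 were higher in NFFSE (Itgb4, Sfn, Krt14, Epcam and Dsp), 0 were lower and 3 were not called in limma (7 higher and 1 lower at an unadjusted p under 0.05, 4 higher and 1 lower by the methods' test). Over all genes, 11.1% were called higher and 15.4% lower. The marker that went lower was Trp63, at 14769 ± 552 in NFFSE and 17398 ± 550 in NFFS (SD, n = 3 each; adjusted p = 0.109, limma), without overlap of the media. The summed signal of the 8 was 147053 to 166566 in NFFSE and 106711 to 121169 in NFFS. Of 12 markers of fibroblasts and dermal papilla, 11 were measured, and their summed signal was 706 to 786 in NFFSE and 766 to 982 in NFFS. Thy1, Col1a2 and Vim were lower and Twist2 was higher in NFFSE, and the other 7 were not called (1 higher and 4 lower at an unadjusted p under 0.05). Of the 11, 0 were at background on all arrays, but Pdgfrb (3 NFFSE and 2 NFFS arrays) and Dpt (2 NFFSE and 3 NFFS arrays) were so on most. The means of Col1a1 (41.0 in NFFSE and 33.7 in NFFS), Col3a1 (31.6 and 30.4) and Lum (38.0 and 27.6) were not far above background. The Vim call was lost with a floor of 32 (adjusted p = 0.0653), without the intensity trend (0.0528) and by the methods' test (0.0960), and that of Col1a2 with the mean of its probe sets (0.0900). The smooth muscle list of 5 genes summed to 211 to 284 in NFFSE and 478 to 619 in NFFS, with Acta2 lower in NFFSE (log2 difference -1.59) and Cnn1 at background on all arrays. The Acta2 call was lost by the methods' test (adjusted p = 0.0707) and with the mean of its probe sets in limma (-0.58, adjusted p = 0.469). Of 3 measured Schwann cell markers, S100b was called higher in NFFSE, at 18.7, 32.7 and 41.6, against background on all 3 NFFS arrays. NFFSE replicate 1 was at background too, and none of the 3 markers passed the methods' test. The lists of melanocytes, endothelium, leukocytes and Merkel cells had 0 members called in limma and by the methods' test (at an unadjusted p under 0.05, 1 lower in each of endothelium and Merkel cells), with Mlana, Tie1 and Cd52 at background on all arrays. Whether cells other than keratinocytes had a part in the Cdh11 signal was not tested.

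Pcdh20 encodes a protocadherin outside the clustered families, with a cytoplasmic tail that lacks the catenin-binding stretch of classical cadherins. Its probe set 1424701_at gave 58.2, 64.9 and 51.1 in NFFSE, against 1797, 1905 and 2866 in NFFS. The NFFSE arrays were above background and close together, and NFFS replicate 3 stood above the other NFFS arrays. The mean was 58.1 ± 6.91 in NFFSE and 2189 ± 588 in NFFS (SD, n = 3 each), a log2 difference of -5.21. The second probe set, 1451454_at, gave 18.7, 3.59 and 23.7 in NFFSE, against 860, 789 and 1115 in NFFS. With NFFSE replicates 1 and 2 at background, the signal was at least 39.6-fold lower in NFFSE. Both probe sets thus placed NFFS replicate 3 highest, and Pcdh20 had rank 18 of 18193 in the order used for Cdh11.

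The genes most like Cdh11 over the 6 arrays, by Pearson's r of the log2 signals among 7276 bright genes, were Ppp1r12a (r = 0.9997), Taz (r = 0.9992) and Bhlhb9 (r = 0.9992). For Pcdh20 they were Abcd3 (r = 0.9993), Marchf8 (r = 0.9990) and Mosmo (r = 0.9990). The sizes of their differences were smaller, such as -0.54 for Ppp1r12a and -0.88 for Abcd3 on the log2 scale. Cdh11 and Pcdh20, both chosen for their drop on these arrays and so bound to be alike, correlated with each other at r = 0.996. With 2 clusters of 3 arrays, such values mainly state that a gene was apart between the media with little spread within them, and 162 genes had r over 0.99 with Cdh11 and 110 with Pcdh20.

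Cdh13 encodes T-cadherin, which is held in the membrane by a lipid anchor and has no cytoplasmic tail for catenins. Its values were higher in NFFSE on all 3 probe sets above background, and 1 of them passed the test. Probe set 1423551_at gave 369, 362 and 389 in NFFSE, against 234, 174 and 186 in NFFS. The NFFSE arrays were close together and all above the NFFS arrays, with a mean of 374 ± 13.9 in NFFSE and 198 ± 31.9 in NFFS (SD, n = 3 each). It rose by 0.93 on the log2 scale, or 1.90-fold (95% interval 0.56 to 1.30 on the log2 scale, adjusted p = 0.0029, limma), and stayed called without any 1 array (adjusted p up to 0.0145).

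Probe set 1434115_at, the brightest of Cdh13 over all arrays, gave 363, 344 and 371 in NFFSE, against 362, 223 and 203 in NFFS. Here NFFS replicate 1 lay at the level of the NFFSE arrays, and the log2 difference of 0.50 did not pass the test (95% interval 0.0027 to 0.997, adjusted p = 0.138, limma). Probe set 1454015_a_at gave 168, 136 and 161 in NFFSE, against 138, 78.6 and 70.0 in NFFS, with NFFS replicate 1 again among the NFFSE arrays and a difference of 0.76 (adjusted p = 0.0988, limma). Without NFFS replicate 1 both passed the test, at 0.76 (adjusted p = 0.0151) for 1434115_at and 1.06 (adjusted p = 0.0245) for 1454015_a_at. Probe set 1431824_at was at background on all 6 arrays.

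**Figure D2:**
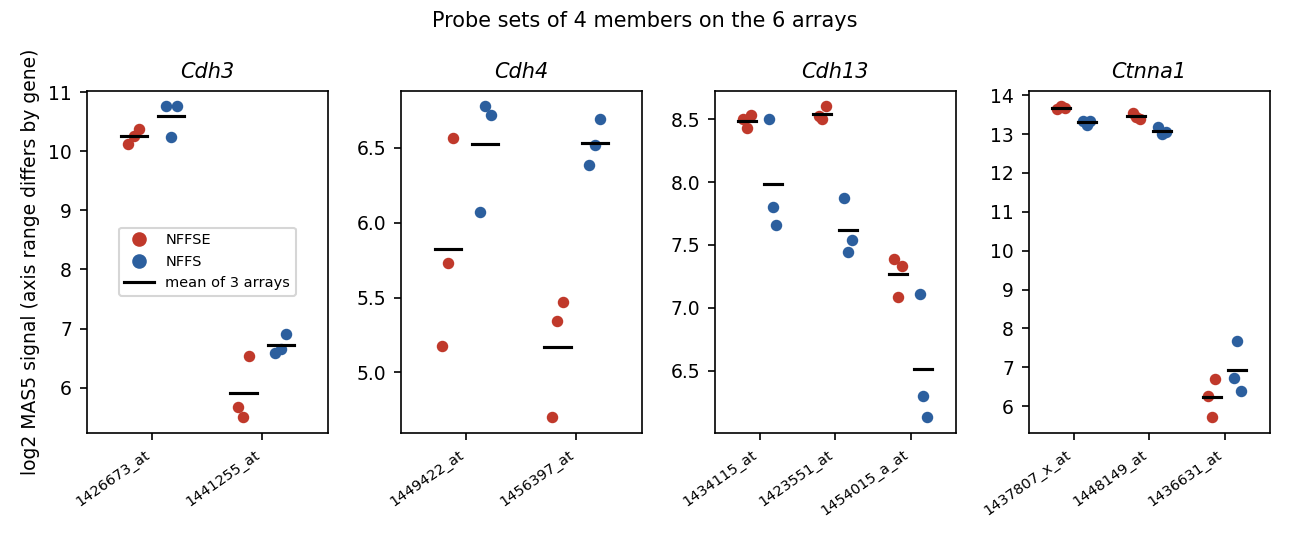
Log2 MAS5 signal (vertical axes, whose range differs by gene) of the probe sets of Cdh3, Cdh4, Cdh13 and Ctnna1 that had signals above background in both media, with NFFSE arrays in red left of NFFS arrays in blue. Points are arrays and black lines are means of 3 arrays. NFFS replicate 1, the leftmost blue point of each probe set, lies at or near the NFFSE arrays for 2 of the 3 Cdh13 probe sets.

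The catenins were bright in both media. Ctnna1 encodes αE-catenin, the form found in epithelia. Its probe set 1437807_x_at gave 12879, 13479 and 12955 in NFFSE, against 10399, 9561 and 10321 in NFFS. All NFFSE arrays were above all NFFS arrays, and the differences within each medium were small. The mean was 13104 ± 327 in NFFSE and 10094 ± 463 in NFFS (SD, n = 3 each), 1.30-fold higher in NFFSE (log2 difference 0.38, 95% interval 0.16 to 0.59, adjusted p = 0.0150, limma). The probe set 1448149_at gave 11873, 11086 and 10686 in NFFSE, against 9199, 8192 and 8558 in NFFS. It showed the same size of difference, 1.30-fold, and also passed the test (adjusted p = 0.0294, limma).

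Both calls of Ctnna1 were close to the threshold. The first was lost without NFFSE replicate 2 (0.36, adjusted p = 0.0752) and with quantile normalization (0.14, adjusted p = 0.357), and the second without any 1 of the NFFSE arrays (adjusted p = 0.0598 to 0.114), without NFFS replicate 3 (adjusted p = 0.0976) and with quantile normalization (0.17, adjusted p = 0.344). Without the intensity trend neither passed (adjusted p = 0.0798 and 0.167). The dim probe set 1436631_at gave 76.7, 52.6 and 104 in NFFSE, against 106, 204 and 84.6 in NFFS, with overlapping arrays and a difference of -0.71 that did not pass the test (adjusted p = 0.244, limma). On 1437275_at all 3 NFFS arrays and 2 NFFSE arrays were at background. The mean over the 4 probe sets gave 0.15 (adjusted p = 0.558, limma). The ending x_at marks a probe set that the manufacturer lists as able to bind other transcripts.

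Ctnnd1 encodes p120-catenin, which binds cadherins at the membrane and keeps them there. Its brightest probe set, 1437448_s_at, gave 2133, 1913 and 1909 in NFFSE, against 2130, 1605 and 1808 in NFFS. The arrays overlapped, with replicate 1 the highest in both media, and the log2 difference was 0.11 with a 95% interval of -0.16 to 0.39 (adjusted p = 0.583, limma). Probe set 1422450_at gave 1003, 935 and 802 in NFFSE, against 890, 479 and 736 in NFFS, a difference of 0.42 that did not pass the test (adjusted p = 0.200, limma). The dim 1445830_at ran the other way at -0.72 (adjusted p = 0.306, limma), and the mean over all 3 probe sets was -0.064.

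**Figure D3:**
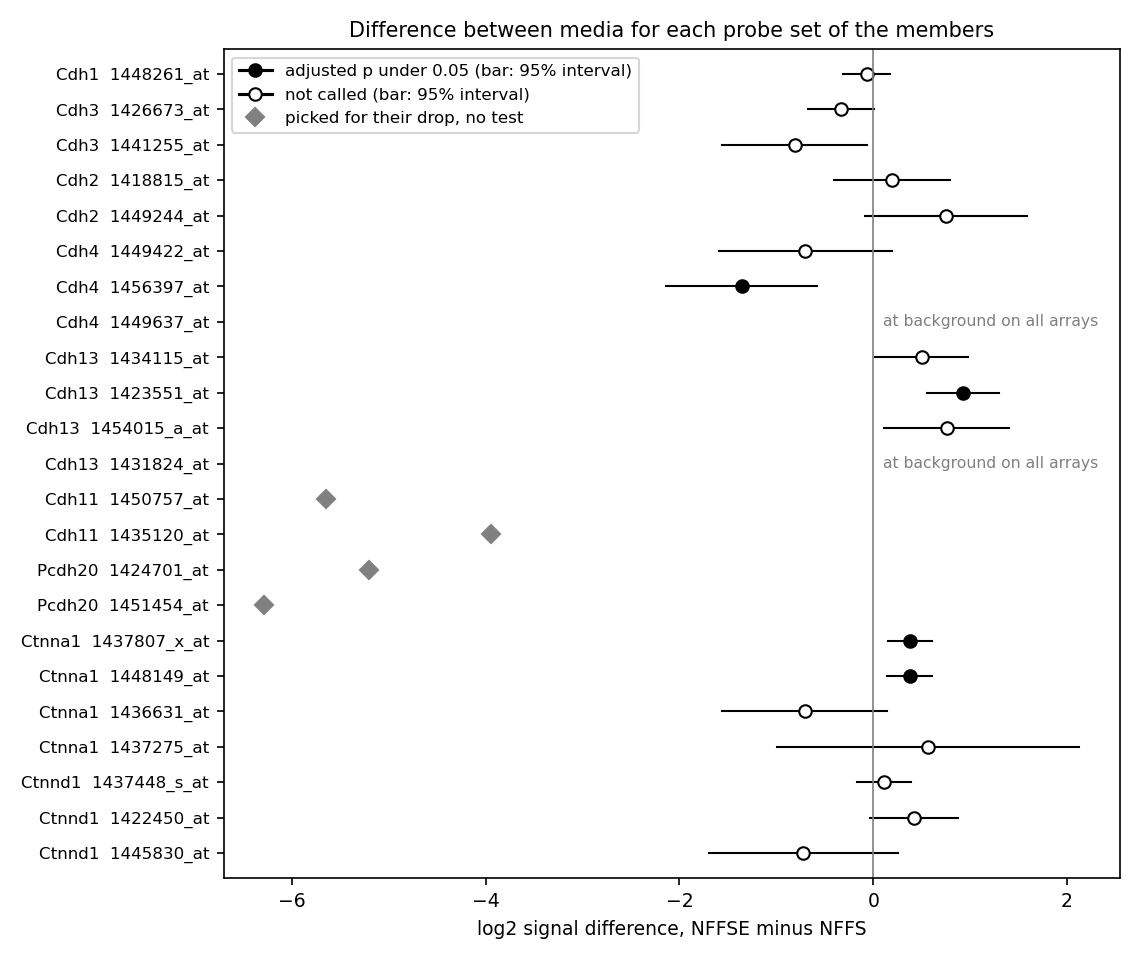
Log2 signal difference, NFFSE minus NFFS (horizontal axis), of the 23 probe sets, with 95% intervals from limma as bars. The 2 probe sets at background on all 6 arrays, of Cdh4 and Cdh13, carry a written mark in place of a point. Differences are drawn as computed and not as bounds, also for 1435120_at and 1451454_at, each with 2 NFFSE arrays at background. Filled circles have an adjusted p under 0.05 over all probe sets, open circles do not, and grey diamonds are the probe sets of Cdh11 and Pcdh20, drawn without an interval because these genes were chosen for this difference. The 3 probe sets called higher belong to Cdh13 and Ctnna1, and the 1 called lower belongs to Cdh4.

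A ratio of 2 genes on the same array does not depend on a factor that scales all signals of that array. It can change with quantile normalization, and the ratios here are of the signals as deposited. The log2 ratio of Ctnna1 to Cdh1 was 0.33 ± 0.12 in NFFSE and -0.11 ± 0.051 in NFFS (SD, n = 3 each), with all NFFSE arrays above all NFFS arrays. The ratio of Cdh13 to Cdh1, from the brightest probe sets, was also higher on every NFFSE array than on any NFFS array, with a difference of 0.57. The gap was narrow, with NFFSE replicate 3 at -4.88 and NFFS replicate 1 at -4.92. How many of all genes had ratios to Cdh1 without overlap was not computed. By signal, the arrays of the media did not overlap for 40.8% of all genes. For Cdh2, Cdh3, Cdh4 and Ctnnd1 the ratios overlapped between the media, with differences of 0.26, -0.27, -0.63 and 0.18. The ratios of Cdh11 and Pcdh20 to Cdh1 differed by -5.58 and -5.14.

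The other genes of the cadherin system were read from 6 lists with 61 genes, of which 58 were measured. Limma called 10 higher and 9 lower and left 39 uncalled, against 11.1% of all genes called higher and 15.4% called lower, and their median log2 difference was 0.16, against -0.012 over all genes. The lists went in no single direction, but some paralogs of the members stood far apart between the media.

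Ctnnd2 encodes δ-catenin, a relative of p120-catenin known from neurons. It gave 26.1, 34.7 and 18.2 in NFFSE, against 705, 563 and 829 in NFFS. NFFSE replicate 3 was at background and the other NFFSE arrays were close to it, so that Ctnnd2 fell at least 25.2-fold (adjusted p = 3.71e-06, limma). Of 8 other catenins and relatives of p120-catenin, 2 rose and 2 fell, with a median of 0.07. The plakoglobin gene Jup, whose product can take the place of β-catenin at cadherins and is part of desmosomes, rose 1.79-fold (2688 ± 246 in NFFSE and 1511 ± 227 in NFFS; SD, n = 3 each), and Pkp4 rose 1.66-fold. Arvcf, another relative of p120-catenin, fell 2.25-fold (96.0 ± 18 in NFFSE and 214 ± 16.2 in NFFS; SD, n = 3 each). Ctnnb1, which encodes β-catenin, had overlapping arrays, with 22302 ± 1305 in NFFSE and 22651 ± 1726 in NFFS (SD, n = 3 each; log2 difference -0.02, adjusted p = 0.922, limma). Its sign depended on the scaling, with 0.18 (adjusted p = 0.280) after centering on medians and -0.28 (adjusted p = 0.0281) after quantile normalization.

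Among 11 solitary protocadherins, the relatives of Pcdh20, 2 rose and 2 fell, with a median of 0.23. Pcdh7 gave 3032, 3508 and 3113 in NFFSE, against 1258, 1271 and 921 in NFFS. Its media were clearly apart, and it rose 2.82-fold (adjusted p = 4.12e-05, limma), which is the opposite direction to Pcdh20. Pcdh1 rose 2.73-fold (109 ± 4.71 in NFFSE and 40.5 ± 8.08 in NFFS; SD, n = 3 each; adjusted p = 0.00733, limma). Pcdh18 fell 3.47-fold (67.5 ± 5.96 in NFFSE and 239 ± 64.4 in NFFS; SD, n = 3 each; adjusted p = 0.000738, limma). Pcdh10 was at background on all NFFSE arrays and dim in NFFS, at least 1.71-fold lower in NFFSE (adjusted p = 0.0233, limma), a call that was lost without NFFSE replicate 1 (adjusted p = 0.0648) or 2 (0.0729) and without NFFS replicate 2 (0.0771) or 3 (0.0851). It was also lost with a floor of 32 (-0.39, adjusted p = 0.225), with the mean of its probe sets (-0.36, adjusted p = 0.733) and by the methods' test (0.0996). Pcdh11x was at background on all 6 arrays.

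Of 12 measured other type I and type II cadherins, the relatives of Cdh11 among them, 0 were higher and 1 was lower in limma and by the methods' test (at an unadjusted p under 0.05 also 0 and 1), with a median of 0.11. The one was Cdh20, at background on all NFFSE arrays and at 31.3, 37.4 and 24.8 in NFFS, at least 1.35-fold lower in NFFSE (adjusted p = 0.00893, limma), a call that a floor of 32 under the signals ended (-0.08, adjusted p = 0.544). Cdh18 and Cdh19 were at background on all 6 arrays. The repressors that act on Cdh1 (Snai1, Snai2, Zeb1, Zeb2, Twist1 and Tcf3) had 0 of 6 called in limma and by the methods' test, with 0 higher and 1 lower at an unadjusted p under 0.05 and a median of -0.21. Snai2 gave 4859, 7478 and 7657 in NFFSE, against 7689, 8683 and 7312 in NFFS, with overlapping arrays, and Twist1 was at background on all arrays.

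Of 14 adherens junction partners, 4 rose and 3 fell, with a median of 0.33. Afdn encodes afadin, which links nectins to actin. It gave 1538, 1216 and 1642 in NFFSE, against 4438, 3499 and 3742 in NFFS, and fell 2.66-fold (adjusted p = 5.52e-05, limma), although the average over its probe sets, -0.79, did not pass (adjusted p = 0.0563, limma). Nectin4, an adhesion molecule of epithelia, rose 2.86-fold (495 ± 38.5 in NFFSE and 176 ± 37.0 in NFFS; SD, n = 3 each). The actin-associated genes Vasp and Zyx rose 1.51-fold and 1.63-fold (Zyx 0.45, adjusted p = 0.0897, as the mean of its probe sets), and Lpp, a relative of Zyx, fell 1.66-fold with NFFS replicate 2 the lowest of its medium. Nectin3 fell 1.63-fold. The calls of Lpp and Nectin3 did not hold without each of several single arrays, with adjusted p up to 0.0821 for Lpp (without NFFSE replicate 2) and 0.0765 for Nectin3 (without NFFS replicate 3). Both were also lost with centering on medians, a floor of 32, no intensity trend and the methods' test (adjusted p up to 0.157 for Lpp and 0.143 for Nectin3), and Nectin3 with quantile normalization (0.0742) and with the mean of its probe sets (-0.45, adjusted p = 0.313). Vcl, which encodes vinculin, a protein that binds α-catenin under tension, gave 6237 ± 142 in NFFSE and 5829 ± 750 in NFFS (SD, n = 3 each; adjusted p = 0.568, limma).

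Of 7 measured genes of cadherin shedding and turnover, 2 rose and 1 fell, with a median of 0.23. Rab11a, a GTPase of recycling endosomes, rose 1.63-fold (7281 ± 515 in NFFSE and 4484 ± 586 in NFFS; SD, n = 3 each), and the mean of its probe sets did not pass (0.29, adjusted p = 0.118, limma). Adam10, a protease that sheds cadherins, rose 1.34-fold, but its call was lost without NFFSE replicate 1 (adjusted p = 0.0658) or 3 (0.0569) or without NFFS replicate 3 (0.0692), with quantile normalization (0.0682), without the intensity trend (0.0934) and by the methods' test (0.0648). Cbll1, an E3 ligase for E-cadherin, fell 1.58-fold (adjusted p = 0.00744, limma), a call lost with the mean of its probe sets (-0.30, adjusted p = 0.108), after centering on medians (-0.45, adjusted p = 0.0841), without the intensity trend (0.0556) and by the methods' test (0.0682).

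**Figure D4:**
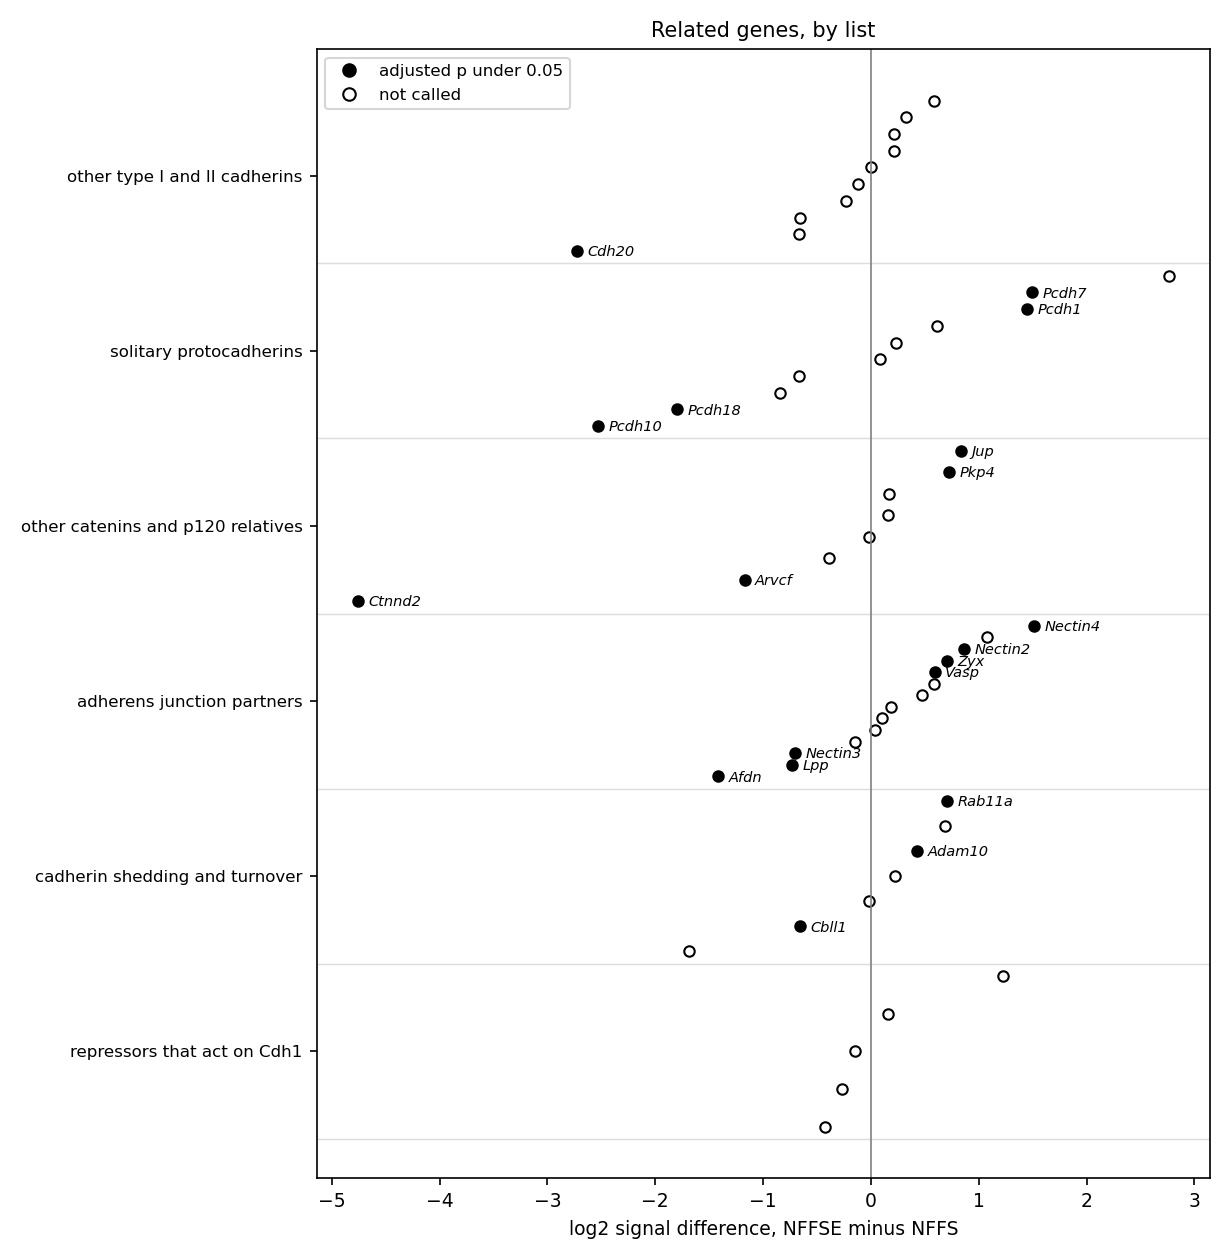
Log2 signal difference, NFFSE minus NFFS (horizontal axis), of the related genes in 6 lists, 1 point per gene, ordered by size within a list. Filled circles have an adjusted p under 0.05 in limma and are named, open circles do not, and genes at background on all arrays are not drawn. Differences are drawn as computed and not as bounds, also for Cdh20 and Pcdh10, which were at background on all NFFSE arrays. Ctnnd2 lies farthest to the left at -4.76, and all lists but the repressors that act on Cdh1 hold called genes.

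The genes next to the members on the chromosomes, from the RefSeq annotation of GRCm38.p6 with 2 neighbours on each side, were 32 genes other than members, of which 31 were measured. Limma called 6 higher and 5 lower, and 20 were not called, against 11.1% of all genes called higher and 15.4% called lower. Cdh3 and Cdh1 are adjacent on chromosome 8, between Zfp90 (log2 difference -1.41, adjusted p = 0.000529) and Tango6 (0.99, adjusted p = 0.00557). Beyond Tango6 lies Has3, a hyaluronan synthase, at 1885 ± 439 in NFFSE and 61.1 ± 21.3 in NFFS (SD, n = 3 each; log2 difference 4.98, adjusted p = 1.63e-06, limma). Cdh11, also on chromosome 8, has Cdh8 and Cdh5 as its nearest neighbours, and Pcdh20 on chromosome 14 has Tdrd3 and Pcdh9. None of these 4 was called in limma, with differences of 0.58, 0.21, -0.34 and 0.08. Of the second neighbours of Cdh11, Got2 was called higher in NFFSE (0.65, adjusted p = 0.000893, limma) and Bean1 was not called (0.11). Those of Pcdh20, Diaph3 (-0.38) and Spertl (-2.63), were not called. The Spertl means, 1.34 in NFFSE and 11.5 in NFFS, were below the background limit.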

How the data were processed

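RNA of 6 cultures (3 NFFSE, 3 NFFS) was measured on an Affymetrix mouse genome array from 100 ng of total RNA. What the authors deposited are linear intensity values from MAS5 (per the labels), the version of which was not given in the sources used here, and the authors had scaled them so that each array has the same mean of 500.003 without the lowest and highest 2% of probe sets. Background correction and probe set summary are therefore the authors' own. Median signals ran over 56.5 to 65.0 in NFFSE and 66.5 to 70.6 in NFFS.

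Log2 signals were fitted with limma 3.58.1 (R 4.3.3, lmFit and eBayes with an intensity trend; tested on simulated data) and adjusted by Benjamini-Hochberg over 18193 genes, each read from its brightest probe set over the 6 arrays, and separately over 45037 probe sets. For the genes, adjusted p-values are those of the gene fit where the brightest probe set is described, and of the probe set fit otherwise. Probe sets with several symbols (932) or not listed with a gene (9160) were not named. Protein sequences were not analysed here. Folds are antilogs of log2 differences, and bounds use 22.7, a limit chosen with the data seen.

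The members and lists were chosen with earlier results of these data known. Named are all members, from each related list up to 3 called genes per direction with the smallest p, the 3 genes most like Cdh11 and Pcdh20 among those at or above the 60th percentile of the mean in the higher medium, and markers that were called or at background on all arrays. Ctnnb1, Vcl, Snai2, Trp63, Pdgfrb, Dpt, Col1a1, Col3a1, Lum and the chromosomal neighbours were named after their values were seen. Alternatives were median centering, quantile normalization, 16 added to the signals, a floor of 32, a filter on signals under the 40th percentile, the mean of all probe sets, no intensity trend, the methods' test (2-tailed, on log2 signals), a replicate block and leaving out each array. The main fits had no term for the repeat. Only the replicate block took the replicate numbers as pairs, because, by the series design, each repeat's cells went into both media. Deviations from the medium means correlated at 0.063, 0.042 and 0.037 between arrays of the same number, and between -0.039 and -0.0034 between arrays of different numbers (across 18193 genes).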

Additional observations from a re-analysis of the deposited data

How the results depend on the processing

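As the values were first given, genes called numbered 2021 higher and 2805 lower, and probe sets 3463 and 5705. Genes higher were 1339 without the intensity trend and 1283 by the methods' test, and genes lower were 1816 with median centering and 1736 by the methods' test. Probe sets higher were 1805 without the trend and 1935 by the methods' test, and probe sets lower were 3645 with centering, 3220 without the trend and 3003 by the methods' test. Without the trend and with the mean of all probe sets, 0 of the 7 genes chosen by name were higher; 1 of their probe sets was higher without the trend and 0 were lower by the methods' test. Of the related genes, 5 were lower with the floor and 5 by the methods' test. Cdh11 was at -5.45 with centering, -5.00 with 16 added, -5.42 with the floor and -4.80 as the mean of its probe sets, and Pcdh20 at -4.87 with 16 added and -5.75 as that mean.

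Without 1 array, genes higher were 1418 to 2110 and lower 2173 to 2732, probe sets higher 2411 to 3543 and lower 4163 to 5065. The genes chosen by name were 0 to 2 higher and 0 to 1 lower, their probe sets 1 to 5 higher and 0 to 2 lower, and the related genes 8 to 11 higher and 6 to 9 lower. Cdh11 ran over -5.72 to -5.58 and Pcdh20 over -5.34 to -5.00. Signs turned for Cdh1 (0.13, centering), Cdh2 (-0.0074 without NFFS replicate 2, up to 0.36 without NFFS replicate 3), Ctnnd1 (-0.064, mean of probe sets), Vcl (-0.031, quantile normalization) and Ctnnb1 (0.18 with centering; 0.027, 0.015 and 0.0078 without NFFSE replicate 1, NFFS replicate 2 and NFFS replicate 3, down to -0.086 without NFFS replicate 1), none past the threshold. The cause of these changes was not tested.

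With the replicate number as a block (the pairing of the arrays), 2182 genes were higher and 3000 lower, 12 related genes were higher and 11 lower, and Ctnna1 had an adjusted p of 0.02 in limma. No call of a member changed with the block. Cdh13 passed the test with quantile normalization (0.66, adjusted p = 0.0463). The dim probe sets of Cdh2 and Cdh4 had wider 95% intervals than the bright ones of Cdh1 and Ctnna1.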
